A study of Mus musculus with 4 samples.

Results

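Rab GTPases and the SNARE machinery of exocytosis were followed in mouse female germline stem cells (FGSCs) after knockdown of the long non-coding RNA Gm26917. Members were the protein-coding genes on primary chromosomes whose symbols name a Rab protein, a syntaxin (Stx), a syntaxin-binding protein (Stxbp), a VAMP, a SNAP, a synaptotagmin (Syt), a synaptotagmin-like protein (Sytl) or an Unc13 protein. Of the 12701 genes in the expression table, 84 were members. They comprised 48 Rab GTPases, 22 SNAREs (syntaxins, VAMPs and SNAPs), 6 syntaxin-binding proteins, 5 synaptotagmins or synaptotagmin-like proteins and 3 Unc13 proteins. The mouse annotation GENCODE M21 holds 119 symbols of this kind on primary chromosomes, and 35 of them had no row in the table, among them Snap25, Syt1, Syt2, Syt7, Rab3b, Rab3c, Rab26 and Unc13c.

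FGSCs are ovary-derived germ cells kept in culture. Lentivirus had delivered either a control hairpin (shNC) or a hairpin targeting Gm26917 (shGm26917), and infected cells of both groups had been kept by antibiotic selection. Total RNA was sequenced from 2 libraries per group, and values are CPM, reads scaled to a common library size. It is not stated which of the hairpin constructs was sequenced, nor whether replicate libraries came from separate cultures. The study speaks of biological replicates in its sequencing of these cells, and the p-values reflect the spread between the libraries of a group, which may in part be technical. In RNA from whole cultures, fewer cells of a type and less RNA per cell cannot be told apart.

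Rab GTPases are molecular switches: bound to GTP, each sits on a particular membrane and recruits the motors, tethers and fusion factors that define that compartment. Fusion itself is carried out by SNAREs, in which a VAMP on the vesicle pairs with a syntaxin and a SNAP protein on the target membrane. Syntaxin-binding proteins and Unc13 proteins prepare the syntaxin for this pairing, and synaptotagmins couple it to calcium. Cells that release stored granules, such as neurons, mast cells and cytotoxic lymphocytes, use particular sets of these proteins, while the Rabs of the endoplasmic reticulum (ER), Golgi and endosomes work in every cell.

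Gm26917 itself was at 155 and 157 CPM in shNC and at 136 and 104 CPM in shGm26917. Both shGm26917 libraries lay below both shNC libraries, but the decrease was not called (log2 fold change −0.39, adjusted p = 0.0696). The study reports the knockdown of Gm26917 from RT-qPCR, a measurement apart from these libraries. Gm42418, a further long non-coding RNA on the same chromosome and strand, fell from 2882 and 3462 CPM to 729 and 687 CPM (log2 fold change −2.16, adjusted p = 5.57e-05). Whether reads of Gm26917 and Gm42418 can be told apart was not tested. Defining germ cell genes Ddx4 and Dazl had no row, and 4 of 11 germ cell markers were listed. Their summed level was 118 to 130 CPM in shNC and 83.0 to 83.3 CPM in shGm26917. Most of this sum was Ifitm3, which fell from 86.8 and 99.6 CPM to 52.9 and 52.6 CPM. The other listed germ cell markers, Zbtb16, Gfra1 and Etv5, passed no test (log2 fold changes −0.30, 0.34 and −0.035). Of 14 mast cell markers 7 were listed, among them Kit at 1187 to 1279 CPM and Cpa3 at 490 to 823 CPM. The mast cell markers summed to 2727 to 2750 CPM in shNC and to 2558 to 2582 CPM in shGm26917. Of these 7 markers Cpa3 rose, 4 fell (Gata2, Il1rl1, Ms4a2, Mcpt8), and the genes of mast cell granule proteases Mcpt4, Tpsab1, Tpsb2 and Cma1 had no row. All 5 fibroblast markers were listed, at a sum of 387 to 406 CPM in shNC and of 354 to 366 CPM in shGm26917. Macrophage markers were listed for 2 of 5 (sum 168 to 193 and 165 to 170 CPM), and of the neuronal markers only Tubb3 had a row, at 1.74 to 2.07 CPM. The part of these markers in the results below was not tested.

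Promoters are shown for 4 members with a call, each with a close relative that passed no test or moved the other way. Rab6b, Rab1b, Rab11b and Rab3a also had a window and such a relative and are not shown. The windows shown therefore do not stand for those of all called members. The windows hold the 250 bases before the gene start given by RefSeq on GRCm38.p6, read on the gene's strand, and the start used in these cells was not measured. Capitals mark, on either strand, the E-box CACGTG, the CRE motif TGACGTCA, the GC box GGGCGG and the CCAAT box. The TATA box TATAAA, the ETS site CCGGAAG and the AP-1 site TGANTCA were searched too, and no marked stretches overlap in these windows. Vamp1 and Unc13b are among the members with the largest rises. Rab5a and Stxbp3 fell.
Vamp1, chr6:125215331-125215580, plus strand: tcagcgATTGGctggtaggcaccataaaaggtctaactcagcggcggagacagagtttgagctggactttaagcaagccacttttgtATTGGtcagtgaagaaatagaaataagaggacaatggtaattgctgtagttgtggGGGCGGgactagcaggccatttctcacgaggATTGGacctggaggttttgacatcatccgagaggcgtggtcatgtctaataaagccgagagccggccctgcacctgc
Unc13b, chr4:43058703-43058952, plus strand: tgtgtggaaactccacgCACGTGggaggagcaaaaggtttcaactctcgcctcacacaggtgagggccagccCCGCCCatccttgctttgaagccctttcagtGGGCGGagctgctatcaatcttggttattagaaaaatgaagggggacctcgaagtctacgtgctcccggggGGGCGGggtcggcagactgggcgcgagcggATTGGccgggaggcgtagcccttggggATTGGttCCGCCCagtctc
Rab5a, chr17:53478984-53479233, plus strand: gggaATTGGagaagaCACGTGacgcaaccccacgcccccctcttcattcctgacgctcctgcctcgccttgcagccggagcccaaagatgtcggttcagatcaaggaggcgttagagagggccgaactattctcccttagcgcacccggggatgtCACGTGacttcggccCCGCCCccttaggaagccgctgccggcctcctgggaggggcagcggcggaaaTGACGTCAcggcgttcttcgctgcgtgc
Stxbp3, chr3:108840503-108840752, minus strand: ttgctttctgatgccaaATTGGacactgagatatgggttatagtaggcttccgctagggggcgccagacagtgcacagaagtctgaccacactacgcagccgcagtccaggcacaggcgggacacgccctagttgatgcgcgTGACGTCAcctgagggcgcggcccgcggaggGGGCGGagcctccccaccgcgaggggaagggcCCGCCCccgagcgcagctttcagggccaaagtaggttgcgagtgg

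The Vamp1 window held a CCAAT box in 3 places, and the Unc13b window held a GC box in 4 places and a CCAAT box in 2. A window was found for 69 members, of which 18 had a call. Where a gene had several windows, the first in the table was taken. The CRE motif was present in 2 of the 69 windows, those of Rab5a and Stxbp3, against 2.84% of 9087 windows of listed protein-coding genes and 1.56% of all 32536 windows. The E-box was found in 8 of 69 member windows (8.58% of listed genes, 6.04% of all windows), the GC box in 44 (60.9% and 33.0%) and the CCAAT box in 27 (36.8% and 33.8%). The TATA box was in 3 windows (6.09% and 12.3%), the ETS site in 4 (14.8% and 6.95%) and the AP-1 site in 2 (4.19% and 6.73%). Matches are letters in a sequence, and binding was not measured.

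Between shNC and shGm26917 the members showed small shifts in both directions. Of the 84, 9 members were higher in shGm26917, 14 were lower and 61 passed no test, at an adjusted p under 0.05 over all 12701 genes. Of all genes, 11.6% were called higher and 11.5% lower, against 10.7% and 16.7% of members, so the share called higher lay close to that of all genes. No called member changed by 2-fold, and 4 changed by at least 1.5-fold, among them Vamp1, Syt9 and Unc13b upward. The median log2 fold change was −0.074 over the members and −0.0058 over all genes. Leaving out shGm26917 replicate 1 left 5 members called higher and 4 lower, and leaving out shGm26917 replicate 2 left 3 and 7. Without shNC replicate 1 the counts were 10 and 16, and without shNC replicate 2 they were 14 and 10.

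**Figure D1:**
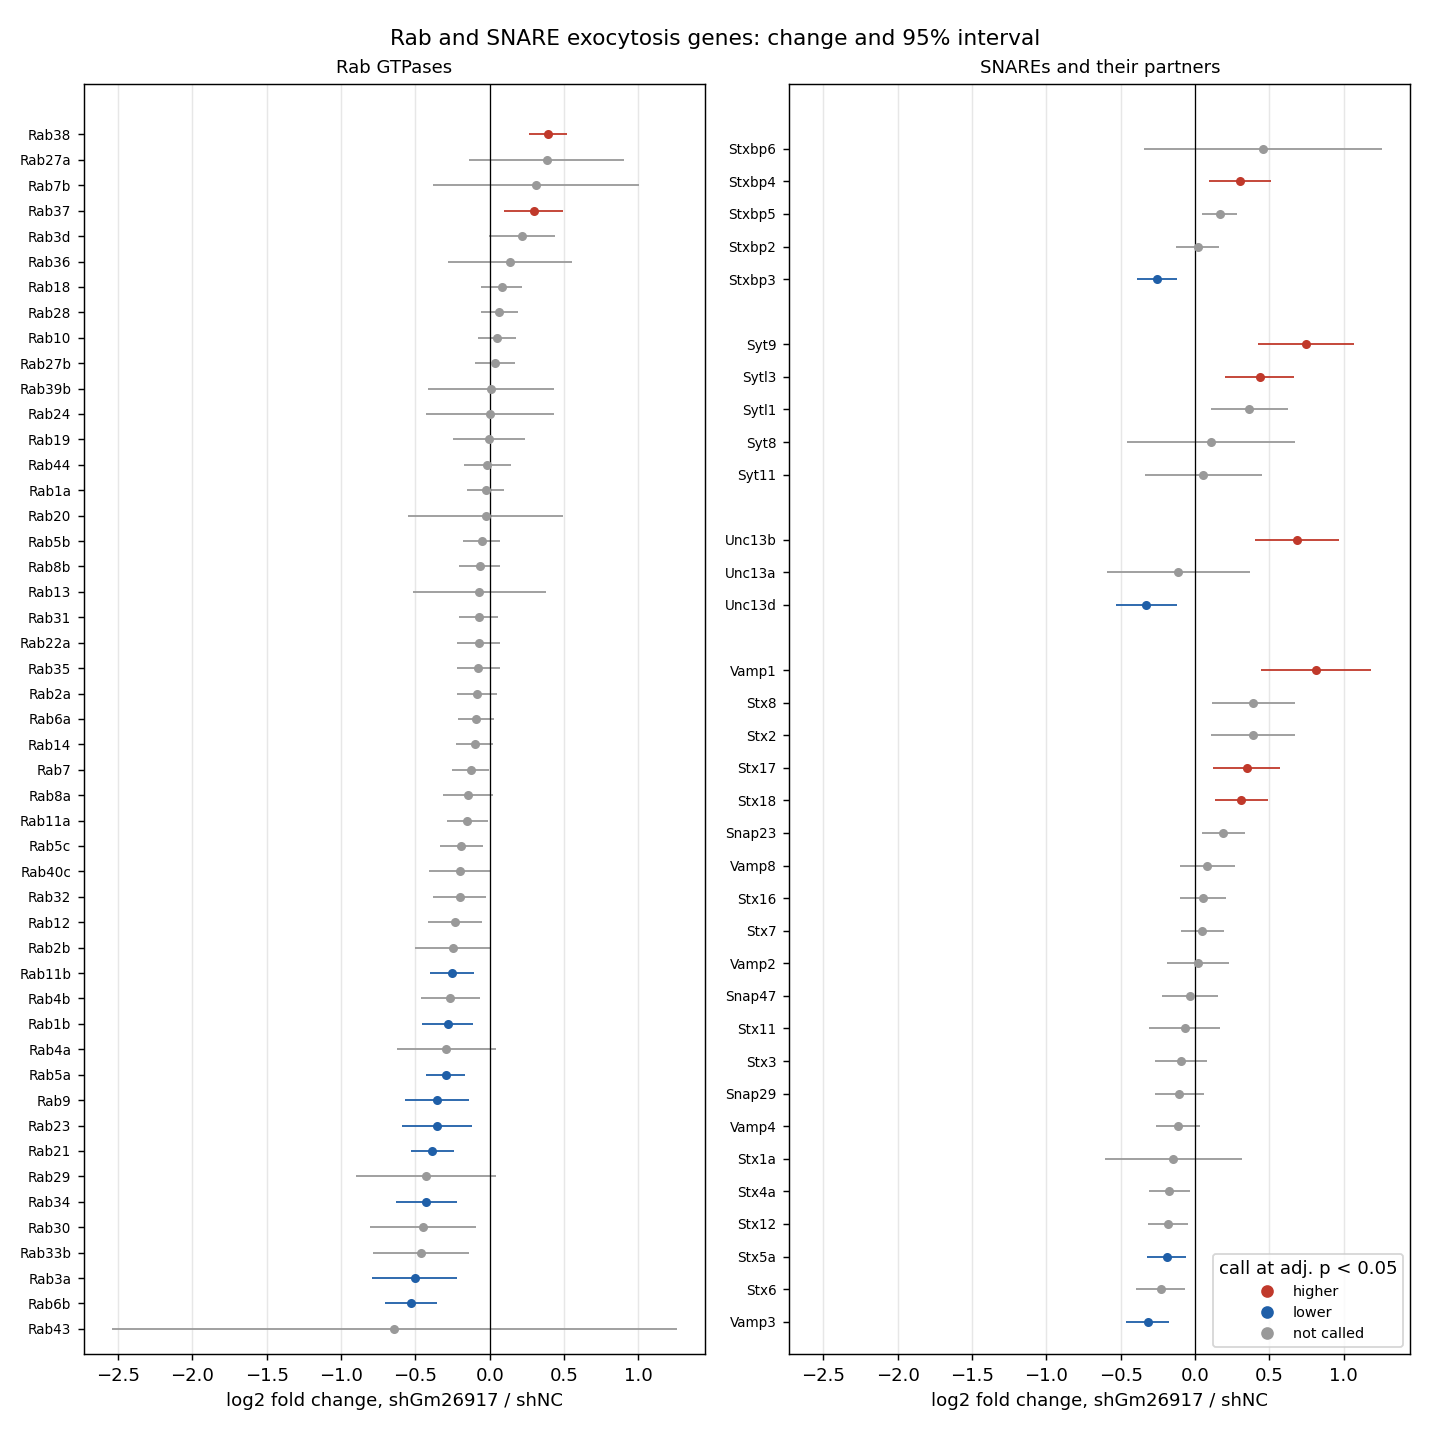
Log2 fold change of shGm26917 over shNC (x axis, no unit) for 82 members, with 95% intervals from limma. Rab GTPases are on the left, and on the right, from the bottom, SNAREs, Unc13 proteins, synaptotagmins and synaptotagmin-like proteins, and syntaxin-binding proteins; red marks the 9 members called higher, blue 13 called lower and grey 60 without a call.

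The Rab GTPases leaned downward and the synaptotagmin group upward. Among Rabs, 36 of 48 had a negative log2 fold change (all genes: 6461 of 12701), 9 fell and 2 rose, and the median was −0.097. Summed over the 48 Rabs, CPM was 2618 and 2667 in shNC, against 2521 and 2531 in shGm26917. All 5 synaptotagmin and synaptotagmin-like genes had a positive value and 2 of them rose. SNAREs were split evenly, with 3 higher and 3 lower of 22, and their sums overlapped between groups (655 and 663 against 645 and 663 CPM). These classes were not tested against each other. Counts of calls in the smaller groups below were not tested either, and 11.6% of all genes were called higher and 11.5% lower.

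**Figure D2:**
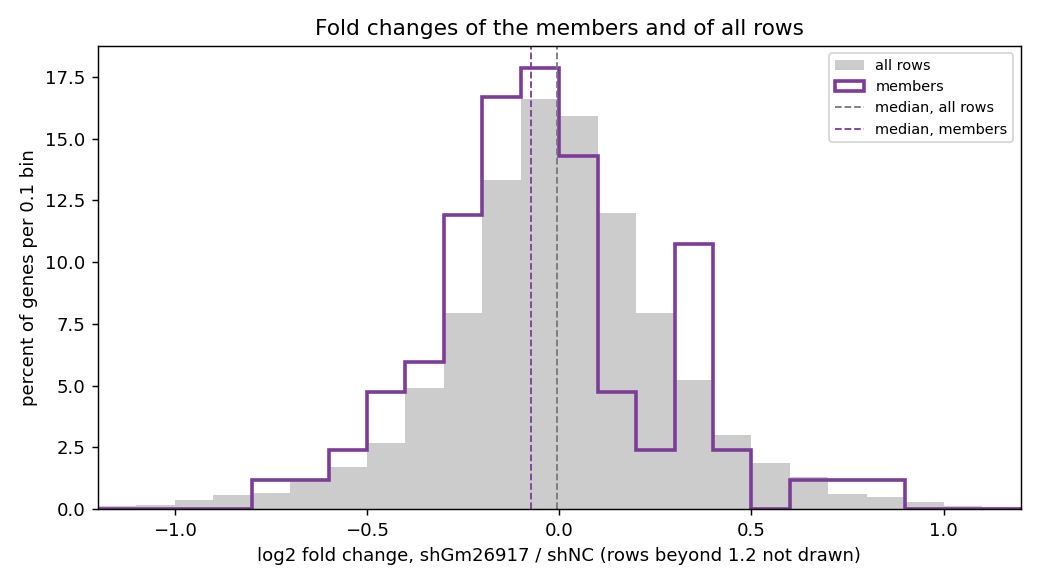
Share of genes (y axis, percent per bin of 0.1) against the log2 fold change of shGm26917 over shNC (x axis) for all 12701 rows (grey) and the 84 members (outline). Dashed lines mark the medians, −0.0058 and −0.074, and 100 rows and no member lie beyond the limits of 1.2 in either direction.

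The Rabs of early endosomes were the group in which every listed member was lower in both shGm26917 libraries than in both shNC libraries. These 6 genes (Rab5a, Rab5b, Rab5c, Rab21, Rab22a and Rab31) summed to 388 and 405 CPM in shNC and to 341 and 344 CPM in shGm26917, and 2 of them passed the test. Over all genes 64.2% did not overlap between groups, counting both directions. Rab21, which guides endocytosis of integrins, was at 85.3 and 93.0 CPM in shNC and at 67.6 and 68.6 CPM in shGm26917. The groups were well apart, and the change was −0.39 on the log2 scale (95% interval −0.53 to −0.24, adjusted p = 0.00542). Rab5a, a master regulator of early endosome fusion, was at 90.5 and 95.2 CPM in shNC and at 74.3 and 76.6 CPM in shGm26917. Both knockdown libraries were lower and its change was −0.30 (95% interval −0.43 to −0.17, adjusted p = 0.0102). Rab5c was at 68.7 and 73.9 against 61.1 and 63.7 CPM (log2 fold change −0.19, adjusted p = 0.0603), and Rab5b at 61.0 and 60.9 against 58.8 and 58.6 CPM (−0.054, adjusted p = 0.508). Rab22a and Rab31, which also act on early endosomes, had log2 fold changes of −0.075 and −0.074 and no call. The log2 ratio of Rab5a to Rab5b was 0.57 and 0.64 in shNC and 0.34 and 0.39 in shGm26917, without overlap. Here and for the other pairs of relatives, the difference between their changes was not tested. These ratios reuse the values of a called member, so a lack of overlap is not separate support. Rab21 was called in every alternative, and the call for Rab5a was lost without shGm26917 replicate 1 (adjusted p = 0.0577).

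ER and Golgi Rabs fell in 2 of 10 cases, and 9 of the 10 had a negative log2 fold change. Among all genes 11.5% were called lower, and 6461 of 12701 had a negative value. Rab6b, a form of the Golgi Rab6 known chiefly from brain, was at 28.2 and 26.3 CPM in shNC and at 19.0 and 18.3 CPM in shGm26917. Both knockdown libraries were lower, and the change of −0.53 on the log2 scale (95% interval −0.71 to −0.35, adjusted p = 0.00354) was called in every alternative. Its widely expressed relative Rab6a was at 117 and 116 against 111 and 108 CPM (−0.093, adjusted p = 0.236), and 19.0% of its exon length overlaps Mrpl48 on the other strand. Rab1b, which with Rab1a moves cargo from the ER to the Golgi, was at 48.2 and 42.7 CPM in shNC and at 37.1 and 37.3 CPM in shGm26917. That is a decrease of 0.28 on the log2 scale by limma (log2 fold change −0.28, adjusted p = 0.0296), whereas Rab1a was at 157 and 157 against 151 and 157 CPM, with overlapping groups. The ratio of Rab1b to Rab1a did not overlap between groups (log2 ratio −1.70 and −1.88 in shNC, −2.02 and −2.07 in shGm26917), nor did that of Rab6b to Rab6a (−2.06 and −2.14, −2.54 and −2.55). Rab33b, a Golgi Rab that takes part in autophagy, was at 35.8 and 39.0 against 23.3 and 31.2 CPM and lay just outside the threshold (−0.46, adjusted p = 0.0528). The remaining members of this group (Rab2a, Rab2b, Rab18, Rab30 and Rab43) passed no test, and Rab43, with 75.4% of its exon length shared with Gm45140 on the same strand, had a 95% interval of −2.54 to 1.26. The call for Rab1b was lost without shGm26917 replicate 1 (adjusted p = 0.0828), without shGm26917 replicate 2 (0.0812) and without shNC replicate 1 (0.0591).

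Recycling and plasma membrane Rabs had negative values in 10 of 11 cases (all genes: 6461 of 12701). Of the 11, 1 fell, a share of 9.09% against 11.5% of all genes called lower. Rab11b, of recycling endosomes, was at 46.2 and 43.2 CPM in shNC and at 37.9 and 36.8 CPM in shGm26917. The groups did not overlap and the change was −0.25 on the log2 scale (adjusted p = 0.0267). An RNA on the other strand, Gm17251, covers 5.37% of its exon length. Rab11a was at 54.9 and 57.4 against 49.4 and 51.7 CPM (−0.15, adjusted p = 0.112), and the ratio of Rab11b to Rab11a overlapped between groups. Without shGm26917 replicate 1, shGm26917 replicate 2 or shNC replicate 1 the adjusted p of Rab11b was 0.0764, 0.145 or 0.052. Rab10, Rab14, Rab8a and Rab8b, which also serve traffic to the cell surface, passed no test, with log2 fold changes from −0.15 to 0.051. Rab12, Rab13, Rab35, Rab4a and Rab4b ranged from −0.29 to −0.069 without a call.

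Of the late endosomal and lysosomal Rabs 1 of 5 fell (all genes: 11.5%). Rab9, which returns receptors from late endosomes to the Golgi, was at 17.7 and 20.4 CPM in shNC and at 14.7 and 14.8 CPM in shGm26917. All knockdown values were lower (log2 fold change −0.35, adjusted p = 0.0311), though the adjusted p was 0.0952, 0.0900 and 0.0679 without shGm26917 replicate 1, shGm26917 replicate 2 and shNC replicate 2. Rab7, the late endosomal Rab that had the highest level per length of all members in shNC (72.9 CPM per kilobase of exon), was at 189 and 192 against 175 and 173 CPM (−0.13, adjusted p = 0.118). Rab24 cannot be read apart from Prelid1, whose exons on the other strand cover 62.4% of its length, since the use of strand in counting is not stated.

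Rab34 and Rab23, both known from the primary cilium, also fell. Rab34 was at 19.7 and 22.2 CPM in shNC and at 15.3 and 15.6 CPM in shGm26917. Its change of −0.43 on the log2 scale (95% interval −0.63 to −0.22, adjusted p = 0.0133) was called in every alternative. Rab23, a restrainer of Hedgehog signalling, was at 10.7 and 11.05 CPM in shNC and at 7.996 and 8.82 CPM in shGm26917. The libraries did not overlap (log2 fold change −0.36, adjusted p = 0.0404), and without shGm26917 replicate 1, shGm26917 replicate 2 or shNC replicate 2 the adjusted p was 0.236, 0.0849 or 0.0645. Rab19, Rab20, Rab28, Rab36, Rab39b and Rab40c passed no test, with log2 fold changes from −0.20 to 0.14.

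Rab38 and Rab37 were the Rabs that rose. Rab38, which with Rab32 builds lysosome-related organelles such as melanosomes, was at 98.7 and 94.3 CPM in shNC and at 124 and 129 CPM in shGm26917. The libraries were well apart, with a change of 0.39 on the log2 scale (95% interval 0.26 to 0.52, adjusted p = 0.00351), called in every alternative. Rab32 was at 27.7 and 30.8 against 25.0 and 25.7 CPM (−0.20, adjusted p = 0.0966), and the log2 ratio of Rab38 to Rab32 was 1.83 and 1.61 in shNC and 2.31 and 2.33 in shGm26917. Per kilobase of exon, Rab38 made up 9.21% and 8.59% of the summed Rab level in shNC and 11.97% and 12.4% in shGm26917. It thereby passed Rab7 (10.6% and 10.6% in shNC, 10.2% and 10.004% in shGm26917) as the most abundant Rab per length.

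Secretory granule Rabs were mixed, with 1 higher, 1 lower and 4 without a call. Rab27b, which docks granules at the plasma membrane, was at 447 and 439 CPM in shNC and at 453 and 454 CPM in shGm26917. The knockdown values were slightly higher, but the change of 0.035 on the log2 scale had a 95% interval of −0.10 to 0.17 and was not called (adjusted p = 0.696). Rab27a was at 3.52 and 2.1 against 4.15 and 3.32 CPM, with overlapping groups. In shNC the level of Rab27b per kilobase of exon was 57.3 times that of Rab27a. Rab37, a granule Rab described in mast cells, was at 16.1 and 15.7 CPM in shNC and at 18.7 and 20.7 CPM in shGm26917. It was higher in both knockdown libraries (log2 fold change 0.30, adjusted p = 0.0421), and the adjusted p was 0.063, 0.303 and 0.059 without shGm26917 replicate 1, shGm26917 replicate 2 and shNC replicate 2.

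Rab3a, the Rab of synaptic vesicles, went the other way, from 5.46 and 5.56 CPM in shNC to 3.65 and 3.83 CPM in shGm26917. This was a change of −0.50 on the log2 scale (95% interval −0.79 to −0.22, adjusted p = 0.0242). Its relative Rab3d, of exocrine and mast cell granules, was at 10.9 and 11.9 against 13.7 and 12.9 CPM (0.21, adjusted p = 0.146). The log2 ratio of Rab3a to Rab3d was −0.99 and −1.10 in shNC and −1.91 and −1.75 in shGm26917, without overlap. Without shGm26917 replicate 1 or 2 the adjusted p of Rab3a was 0.128 or 0.0946. Rab44, a large Rab of granule-bearing blood cells, was at 28.2 and 30.2 against 28.6 and 29.2 CPM.

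**Figure D3:**
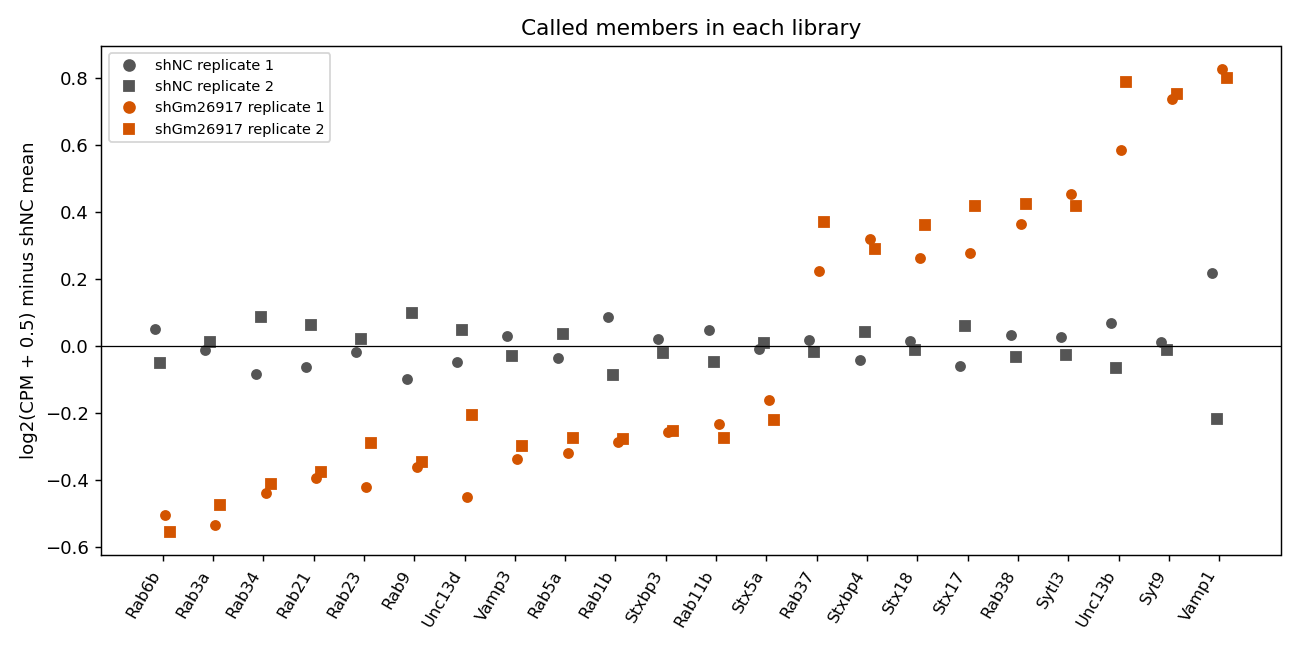
Called members, 22 of them, in each library: log2(CPM + 0.5) minus the mean of the 2 shNC libraries (y axis), members ordered by fold change (x axis). Grey symbols are shNC and orange symbols shGm26917, with circles for replicate 1 and squares for replicate 2; the groups do not overlap for any of these genes, and Vamp1 has the widest shNC spread.

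Among vesicle SNAREs, Vamp1 rose and Vamp3 fell while Vamp2, Vamp4 and Vamp8 passed no test. Vamp1, a synaptic vesicle VAMP, was at 4.96 and 3.54 CPM in shNC and at 7.83 and 7.68 CPM in shGm26917. The groups did not overlap, and the rise of 0.81 on the log2 scale (95% interval 0.44 to 1.18, adjusted p = 0.0112) was called in every alternative, with a value of 0.60 without shNC replicate 2. Vamp3, the VAMP of recycling endosomes, was at 40.3 and 38.7 CPM in shNC and at 31.2 and 32.0 CPM in shGm26917. The decrease was clear of the spread between libraries (log2 fold change −0.32, 95% interval −0.46 to −0.17, adjusted p = 0.0114), and was not called without shGm26917 replicate 1 (adjusted p = 0.058). Vamp2 was at 20.0 and 23.1 against 21.8 and 21.9 CPM, with overlapping groups. Relative to Vamp2, the log2 ratio of Vamp1 went from −2.01 and −2.71 to −1.47 and −1.51, and that of Vamp3 from 1.01 and 0.74 to 0.52 and 0.55. Vamp8, which acts in granule and endosome fusion, was at 23.9 and 23.5 against 23.8 and 26.5 CPM, and a second row for it on a patch scaffold held identical values, so the copies are not separate measurements. Vamp7 was listed only on an unplaced scaffold and was not counted as a member (31.7 and 32.3 against 36.02 and 40.8 CPM, log2 fold change 0.26, adjusted p = 0.0464).

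Of the 6 plasma membrane syntaxins, which receive secretory vesicles, 1 fell and 5 passed no test. Stx4a, the main receptor for constitutive and granule secretion outside neurons, was at 61.3 and 57.4 against 52.5 and 52.7 CPM (−0.17, adjusted p = 0.0745). Stx2 was at 7.66 and 9.41 against 11.8 and 10.8 CPM (0.39, adjusted p = 0.0553), Stx3 at 30.5 and 33.3 against 28.8 and 30.9 CPM, and Stx1a and Stx11 had log2 fold changes of −0.15 and −0.070. Snap23, the partner of these syntaxins outside neurons, was at 104 and 94.1 against 113 and 112 CPM, higher in both knockdown libraries without a call (0.19, adjusted p = 0.0617).

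Of the 8 syntaxins of the ER, Golgi and endosomes, 2 rose and 1 fell. Stx17, which fuses autophagosomes with lysosomes, was at 11.2 and 12.3 CPM in shNC and at 14.3 and 15.8 CPM in shGm26917. Its groups did not overlap (log2 fold change 0.35, adjusted p = 0.0383). Stx18, a syntaxin of the ER, was at 19.4 and 19.0 CPM in shNC and at 23.1 and 24.8 CPM in shGm26917. It too was higher in both (0.31, adjusted p = 0.0243), but 19.8% of its exon length overlaps Gm42858 and 12.5% overlaps Nsg1, both on the other strand. Stx5a, of ER-to-Golgi transport, was at 64.4 and 65.3 CPM in shNC and at 58.0 and 55.6 CPM in shGm26917. This was the smallest called change (−0.19, adjusted p = 0.0463), and it was lost under median-ratio and upper-quartile scaling (adjusted p = 0.0559 and 0.0641). Stx8, of late endosomes, was just outside the threshold, with a higher level in both knockdown libraries (10.04 and 11.8 against 13.3 and 15.7 CPM, 0.39, adjusted p = 0.0514), and was called in 6 of the 12 alternatives. The adjusted p of Stx17 was 0.058, 0.244 and 0.0716 without shGm26917 replicate 1, shGm26917 replicate 2 and shNC replicate 1, that of Stx18 was 0.0557 and 0.192 without shGm26917 replicate 1 and 2, and that of Stx5a was 0.136, 0.314 and 0.0556 without shGm26917 replicate 1, shGm26917 replicate 2 and shNC replicate 2.

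The Unc13 proteins, which prime vesicles for fusion, gave a rise and a fall. Unc13b, known from synapses, was at 5.90 and 5.33 CPM in shNC and at 8.66 and 10.1 CPM in shGm26917. It rose by 0.69 on the log2 scale (95% interval 0.40 to 0.97, adjusted p = 0.00784) and was called in every alternative. Unc13d, the form that works with Rab27 in cytotoxic lymphocytes and mast cells, was at 50.9 and 54.3 CPM in shNC and at 38.3 and 45.5 CPM in shGm26917. Its decrease was larger in shGm26917 replicate 1 (log2 fold change −0.33, adjusted p = 0.034), and the adjusted p was 0.182, 0.0821 and 0.147 without shGm26917 replicate 1, shNC replicate 1 and shNC replicate 2. The log2 ratio of Unc13b to Unc13d was −3.11 and −3.35 in shNC and −2.15 and −2.18 in shGm26917. Per kilobase of exon, Unc13b remained far below Unc13d in both groups (0.247 against 11.2 CPM in shNC, 0.411 against 8.96 CPM in shGm26917). Unc13a was at 2.13 and 1.59 against 1.42 and 1.96 CPM, with overlapping groups.

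Syt9 and Sytl3 rose. Syt9, a calcium sensor of neuroendocrine granules, was at 2.26 and 2.22 CPM in shNC and at 4.07 and 4.11 CPM in shGm26917. Replicates were close and the change was 0.74 on the log2 scale (95% interval 0.42 to 1.07, adjusted p = 0.00965), with an adjusted p of 0.0525 without shGm26917 replicate 2. Sytl3, a synaptotagmin-like protein that binds Rab27, was at 7.18 and 6.91 CPM in shNC and at 9.83 and 9.57 CPM in shGm26917. The groups were apart (log2 fold change 0.44, adjusted p = 0.02), but the adjusted p was 0.114 and 0.0901 without shGm26917 replicate 1 and 2. Sytl1, a further Rab27 binder, was at 10.9 and 13.4 against 15.5 and 16.0 CPM and lay at the threshold itself (0.37, adjusted p = 0.05001), with a call in 7 of the 12 alternatives. Syt11 and Syt8 were at 0.628 to 2.07 CPM with overlapping groups.

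The syntaxin-binding proteins Stxbp3 and Stxbp4, both of which act on syntaxin 4, moved in opposite directions. Stxbp3 was at 48.1 and 46.7 CPM in shNC and at 39.5 and 39.6 CPM in shGm26917. The replicates lay close together and the change was −0.26 on the log2 scale (95% interval −0.39 to −0.12, adjusted p = 0.0189). Stxbp4 was at 10.8 and 11.4 CPM in shNC and at 14.0 and 13.7 CPM in shGm26917. It was higher in both knockdown libraries (0.30, adjusted p = 0.0451). Stxbp2, the partner of syntaxin 11 in cytotoxic granule release, was at 53.1 and 50.9 against 51.2 and 54.2 CPM and overlapped between groups. Stxbp5 (tomosyn), which holds SNAREs inactive, was at 105 and 105 against 117 and 119 CPM (0.17, adjusted p = 0.0536). The call for Stxbp3 was lost without shGm26917 replicate 1 or 2 (adjusted p = 0.0934 or 0.0975). That for Stxbp4 was lost without shGm26917 replicate 1 or 2 or shNC replicate 1 (0.212, 0.175 or 0.0824) and when library totals excluded Gm26917, Gm42418 and mitochondrial genes (0.0509).

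By level, the machinery of regulated secretion listed in these cells was led by non-neuronal forms. Of 38 genes named for regulated secretion 26 were members with a row, of which 4 were higher (Rab37, Unc13b, Syt9, Sytl3), 4 were lower (Rab3a, Vamp3, Stxbp3, Unc13d) and 18 passed no test. Over all genes, 11.6% were called higher and 11.5% lower. Vamp1 was not in this group. Per kilobase of exon, the shNC level was 41.5 CPM for Rab27b, 25.1 CPM for Stx4a, 23.02 CPM for Snap23, 13.7 CPM for Vamp3, 12.5 CPM for Stxbp2 and 11.2 CPM for Unc13d. Other members of the group ranged widely, with Vamp8 at 10.3, Stxbp3 at 8.87 and Rab44 at 5.77 CPM per kilobase. Rab3d was at 2.72, Stx11 at 1.94 and Rab27a at 0.724 CPM per kilobase. Rab3a, of synaptic vesicles, was at 2.48 CPM and Vamp2 at 5.66 CPM. Stx1a, Unc13a and Unc13b, known from neurons, were at 0.148 to 1.35 CPM per kilobase. Several of the members with the largest fold changes (Vamp1, Syt9, Unc13b) were low in CPM too, from 2.22 to 10.1 CPM over the libraries. Such values rest on fewer reads than those of higher members. A level per kilobase does not give the number of reads, since it also depends on merged exon length (22746 bases for Unc13b, 10167 for Vamp1). Mast cell markers and Ifitm3, Cd68 and Col3a1 moved between the groups as well, and their part in these values was not tested.

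**Figure D4:**
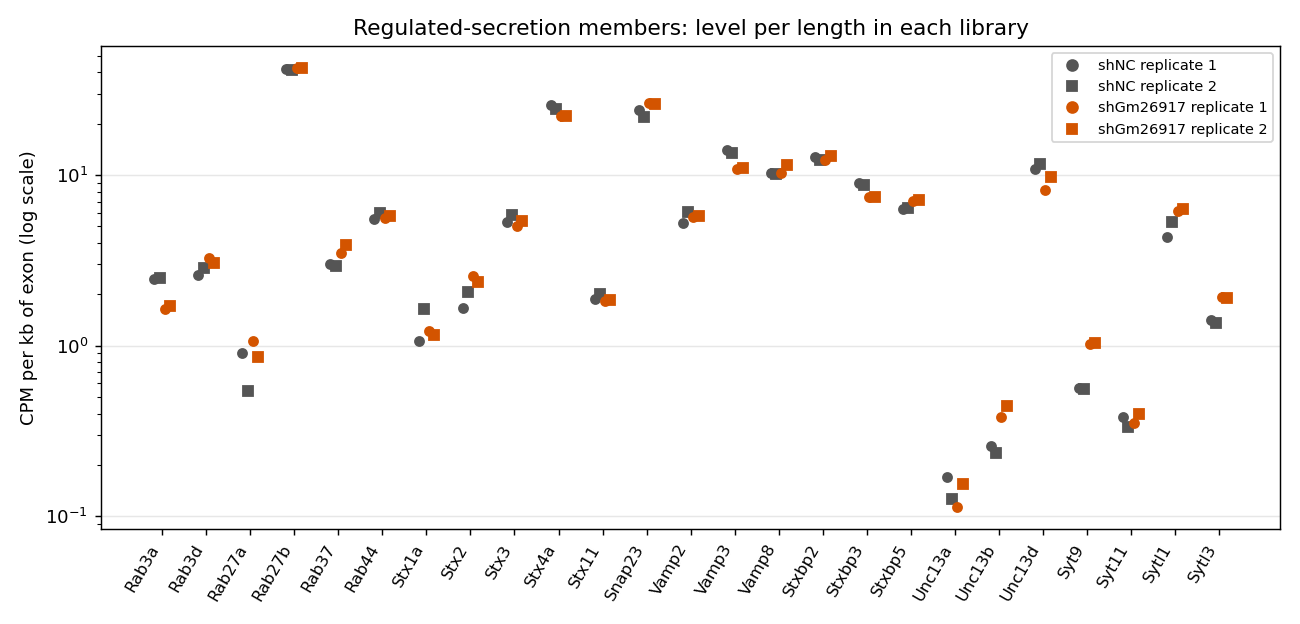
Level per length (y axis, CPM per kilobase of merged exon, log scale) of 25 listed regulated-secretion members (x axis) in each of the 4 libraries, shNC in grey and shGm26917 in orange. Rab27b stands highest in all 4 libraries, and Unc13a stands lowest.

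Genes that serve these proteins gave about the same share of calls as all genes. Across lists of other SNAREs, SNARE recycling factors, SM proteins, the exocyst, Rab prenylation, and activators, inactivators and effectors of Rabs, 137 genes had a row, of which 17 were higher and 14 were lower. These shares were 12.4% and 10.2%, against 11.6% and 11.5% of all genes. Of 12 other SNAREs 3 fell, namely the Golgi SNAREs Bet1l (16.6 and 16.7 against 11.4 and 11.3 CPM, −0.53) and Gosr1 (−0.22) and the ER SNARE Bnip1 (−0.33). Of 7 genes of Rab prenylation and recycling 2 fell, among them Rabggtb, a subunit of the enzyme that attaches lipid to Rabs (47.1 and 47.8 against 36.9 and 39.8 CPM, −0.30). Of 9 exocyst subunits Exoc8 rose (0.42) and Exoc4 fell (−0.24), and of 5 further SM proteins Scfd1 rose (0.19). None of 5 SNARE recycling and clamp genes was called by limma, and 0 of them had an unadjusted p under 0.05.

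Among 41 Rab activators and their subunits 6 rose and 5 fell. The Rab5 activators Rin1 and Rin3 went in opposite directions. Rin1 was at 41.7 and 40.7 CPM in shNC and at 27.2 and 28.3 CPM after knockdown (−0.56 on the log2 scale, adjusted p = 0.00164), and Rin3 was at 29.4 and 30.1 against 47.2 and 39.4 CPM (0.53, adjusted p = 0.00703). Ric1, a subunit of the Rab6 activator, fell (57.3 and 54.1 against 45.2 and 43.5 CPM, −0.32, adjusted p = 0.00992). Of 33 Rab inactivators 5 rose and 2 fell, among them Tbc1d9b (0.38) and Tbc1d2 (0.36) upward and Tbc1d8 (−0.63) downward. Of 25 effectors 4 rose and 1 fell. Ehbp1, which links Rab8 and Rab10 to actin and membranes, rose by 0.52, Bicd1, a Rab6 effector on dynein, rose by 0.43, and Eea1, the Rab5 tether of early endosomes, fell from 209 and 205 CPM to 176 and 170 CPM (log2 fold change −0.26, adjusted p = 0.0148).

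Leaving out 1 library ended several of the calls of these associated genes. Without shGm26917 replicate 1 the adjusted p was 0.0987 for Bnip1, 0.119 for Gosr1, 0.0987 for Rabggtb, 0.107 for Exoc8, 0.253 for Scfd1 and 0.0687 for Tbc1d2. Without shGm26917 replicate 2 it was 0.131 for Bnip1, 0.219 for Gosr1, 0.0994 for Exoc8, 0.296 for Exoc4, 0.185 for Scfd1, 0.123 for Eea1 and 0.0525 for Ric1. Without shNC replicate 1 it was 0.0709 for Gosr1, 0.106 for Exoc4 and 0.0683 for Scfd1, and without shNC replicate 2 it was 0.0724 for Exoc8. The call for Exoc4 was also lost under median-ratio and upper-quartile scaling (adjusted p = 0.0565 and 0.0563), and that for Scfd1 when library totals excluded Gm26917, Gm42418 and mitochondrial genes (0.0527). Bet1l, Rin1, Rin3, Tbc1d8, Tbc1d9b, Ehbp1 and Bicd1 were called in all 12 alternatives.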

How the data were processed

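Libraries were grouped by the genotype labels, 2 per group. Reads had been processed with Bowtie2 2.1.0 and RSEM 1.2.28 on build mm10, and edgeR is listed too, according to the submitters' processing notes. The authors deposited CPM derived from RSEM estimates. Their own comparison, deposited as log2 fold change, linear fold, p-value and adjusted p-value, was not used. Per-gene reads were not recovered, since only 33.7% to 68.0% of values under 2 CPM lay within 0.02 of a whole multiple of the fitted step. Approximate library sizes were 15900000 and 12900000 reads (shNC) and 17900000 and 15800000 reads (shGm26917).

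CPM were compared as log2(CPM + 0.5) with limma 3.58.1 in R 4.3.3 (variance trend, robust moderation), with Benjamini-Hochberg adjustment over all 12701 rows and calls at an adjusted p under 0.05. This scale understates changes of low genes. The test was tested on simulated data. Levels per kilobase used merged exon lengths of GENCODE M21. The strand used in counting and the removal of ribosomal RNA are not given in the sources used here.

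Members, lists and motifs were chosen with earlier results of these data known. The genes named were all called members, the regulated-secretion group, relatives sharing a number with a called member, the members nearest the threshold, Gm26917, Gm42418 and, of each associated list, up to 3 called genes with the smallest p. A few genes that this rule selects are not reported here and stay in the tests and counts. Others named (Vamp7, markers, Rab7, Rab10, Rab14, Rab8a, Rab8b, Rab24, Rab32 and Syt8) were chosen after their values were seen. Alternatives were pseudocounts of 0.1 and 1, 3 other scalings, a filter of 5 CPM, primary chromosomes only, the replicate number as a block, and each library left out; with a group of 1 library, its spread was assumed like that of the other group.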

Additional observations from a re-analysis of the deposited data

How the results depend on the processing

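Of the 23 called members 6 (Rab38, Rab6b, Rab21, Rab34, Unc13b and Vamp1) were called in all 12 alternatives, 17 were lost when 1 library was left out and 2 (Stx5a and Stxbp4) under another alternative. No named member with a call changed direction. Named members without a call gained one in 7 (Sytl1), 6 (Stx8), 5 (Stxbp5), 3 (Rab33b, Stx2 and Snap23) and 2 (Rab5c and Stx4a) of the 12 alternatives. Rab27a gained one in 1 of the 11 alternatives that kept it. Leaving out each library in turn gave 752 to 1793 genes higher and 832 to 1735 lower in all, 3 to 14 members higher and 4 to 16 lower, 1 to 3 Rabs higher and 4 to 11 lower, 1 to 5 SNAREs higher and 0 to 4 lower, 0 to 1 Unc13 genes lower, 0 to 3 synaptotagmin genes higher, 0 to 3 syntaxin-binding proteins higher and 0 to 1 lower, and 7 to 20 associated genes higher and 7 to 18 lower. The members' median log2 fold change then ran from −0.119 to −0.065. Median-ratio and upper-quartile scaling each gave 5 SNAREs higher, and upper-quartile scaling gave 2 syntaxin-binding proteins higher and a median of 0.0082 over all genes. Syntaxin-binding proteins higher numbered 0 with library totals that excluded Gm26917, Gm42418 and mitochondrial genes, and 2 under the 5 CPM filter. With the replicate number as a block, 14 members were higher and 21 lower (1979 and 2003 of all genes), with 6 SNAREs higher and 6 lower and 2 syntaxin-binding proteins higher. Same-numbered libraries deviated together only weakly (correlation 0.112 over 10034 genes, 2 pairs), so the numbers are not shown to pair the libraries. The cause of these differences was not tested. Members under 5 CPM, 17 of 84, rest on few reads, and a difference there may not have been detectable at this depth.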
